A study of Mus musculus with 3 samples.

Results

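Imprinted genes are expressed mainly from 1 parental copy, and the choice is set by DNA methylation that differs between egg and sperm and is kept at control regions through development. Their ATRX peaks were counted here in cultured mouse neurons. The members were 52 well-known mouse imprinted genes of 20 domains, 45 protein-coding and 7 noncoding. They were picked by name from general knowledge of imprinting and not by their peaks. A peak belonged to a member when it overlapped the gene or the 5 kb on either side of it, and overlapping genes share peaks. This gave 143 of 112153 peaks in the control list and 157 of 105674 in the MICAL1-FL list, 300 of 217827 in all.

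Primary neurons were taken between E15.5 and E17.5 from C57BL6/J mouse embryos and received lentivirus on day 5 in culture. The control virus carried mCherry, a red fluorescent protein, and the other virus MICAL1-FL, a form of MICAL1, which is an enzyme known to oxidise actin filaments. Chromatin was collected on day 14 in both conditions, fragmented with an enzymatic kit and precipitated with an antibody against ATRX, and input DNA served as background. There was 1 ChIP library per condition. No difference between the conditions therefore has a replicate check, no test was possible, and all intervals are 95% exact intervals that cover counting error only. The labels do not give the number of embryos or cultures or the promoter that drove either protein. A list of bound DNA holds no expression, so the neuronal label could not be checked against marker genes.

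ATRX is a chromatin remodeller that places histone H3.3 together with its partner DAXX. In the mouse brain it is known to bind imprinted genes, and in mouse embryonic stem cells it is known at the methylated copy of imprinting control regions. ZFP57 is a zinc finger protein that binds methylated TGCCGC letters at those regions and recruits TRIM28 to keep the methylation. The mice were of 1 inbred strain, and the peak lists carry no allele, so the copy that was bound cannot be read from them.

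Promoter windows that a peak overlapped are shown first, because they are the places where a listed peak reached the bases before an imprinted gene's start. RefSeq windows of GRCm38.p6 were found for 40 of the 52 members, 60 windows in all. H19, Ins2, Kcnq1, Cdkn1c, Rtl1, Peg10, Sgce, Kcnk9, Trappc9, Peg13, Impact and Dcn have no window in the table used. A peak overlapped the 250 bases before the start at 4 members, with 5 or 6 fragments each. The share of all promoter windows that a peak overlapped was not worked out, so this count has no background beside it. Mest (chr6:30737800-30738049, plus strand) and Airn (chr17:12741061-12741310, plus strand) were overlapped by a control peak. Blcap (chr2:157566362-157566611, minus strand) and Ube3a (chr7:59228500-59228749, plus strand) were overlapped by a MICAL1-FL peak. Each sequence is RefSeq's, runs 5′ to 3′ on the gene's strand, and has its CpG pairs, the letters that can be methylated, in capitals.
Mest: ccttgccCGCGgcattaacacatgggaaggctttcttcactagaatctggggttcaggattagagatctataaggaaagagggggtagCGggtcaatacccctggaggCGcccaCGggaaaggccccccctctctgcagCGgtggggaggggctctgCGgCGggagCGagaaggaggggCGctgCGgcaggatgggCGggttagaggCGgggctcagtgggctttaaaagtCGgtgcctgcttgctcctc
Airn: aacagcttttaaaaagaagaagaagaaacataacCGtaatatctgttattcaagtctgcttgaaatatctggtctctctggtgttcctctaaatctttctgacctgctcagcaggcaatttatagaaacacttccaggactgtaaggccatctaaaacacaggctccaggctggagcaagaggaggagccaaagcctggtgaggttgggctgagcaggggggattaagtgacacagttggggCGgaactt
Blcap: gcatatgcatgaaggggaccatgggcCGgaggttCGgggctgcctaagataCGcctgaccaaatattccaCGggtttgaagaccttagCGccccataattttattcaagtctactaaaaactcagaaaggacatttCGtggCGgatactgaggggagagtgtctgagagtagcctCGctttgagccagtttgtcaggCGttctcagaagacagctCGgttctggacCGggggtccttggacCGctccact
Ube3a: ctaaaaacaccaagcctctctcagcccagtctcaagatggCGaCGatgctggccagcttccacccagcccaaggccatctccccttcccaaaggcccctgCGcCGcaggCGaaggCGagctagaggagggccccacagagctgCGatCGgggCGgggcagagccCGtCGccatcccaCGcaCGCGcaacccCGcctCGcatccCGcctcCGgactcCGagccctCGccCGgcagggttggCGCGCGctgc
The Ube3a window held 24 CpG pairs at 70% G and C. Mest held 14 CpG pairs at 62.4%, Blcap held 12 at 52.8% and Airn 2 at 45.6%. The letters TGCCGC occurred 2 times in the Mest window, both on the opposite strand, where they read GCGGCA in the sequence above, and did not occur in the other 3 windows.

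Promoter windows of imprinted genes were rich in CpG pairs. The members' windows of 300 bases, 250 before and 50 after the start, held a median of 15 CpG pairs, against 7 in all 32851 windows of the table. The median ratio of observed to expected CpG was 0.637 against 0.384. The table's windows belong to 27025 genes, coding and noncoding, while most members are coding. A background of coding genes alone was not worked out. The letters TGCCGC, searched on both strands, were found in 14 of 60 member windows (23.3%) and in 3813 of all windows (11.6%). They hold a CpG pair themselves, and the 2 shares were not matched for the number of CpG pairs or for gene type. They lay in windows of 13 members, which were Calcr, Commd1, Copg2, Grb10, Igf2, Mcts2, Meg3, Mest, Nnat, Plagl1, Snrpn, Zdbf2 and Zim1. These are letters in the reference and not measured binding sites, and windows of 1 gene can share bases.

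ATRX peaks at imprinted genes were shallow in both lists, with 1 place that stood apart. That place lay inside Ppp1r9a, which codes for neurabin-1, an actin-binding scaffold of synapses on chromosome 6. The control peak there (chr6:4923836-4924197) had 51 fragments over a background of 15.26. Its fold was 3.20 and its p 1.44e-13, with a q of 6.75e-09, all as the authors' peak caller gave them. The MICAL1-FL peak (chr6:4923866-4924114) had 52 fragments over 21.5, with a fold of 2.36, a p of 7.37e-09 and a q of 0.000205. The summits were 13 bp apart and lay 20.7 kb after a RefSeq start of the gene. No other member peak of either list had a q under 0.05, and the background there was the highest of all member peaks. The lowest background of either list was 1.62 fragments, so the background at this place was itself raised. Its folds were not the highest, as shallower member peaks reached 3.51 in control and 3.82 in MICAL1-FL. In which library mapped reads are raised there, and why, was not tested.

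All other member peaks had 4 to 9 fragments at the summit. The median was 5 fragments in both lists. A depth of 6 fragments or fewer was found in 88.1% of control and 83.4% of MICAL1-FL member peaks, against 83.4% and 85.9% of all autosomal peaks. A q of 1 was listed for 140 of the 143 control peaks (97.9%) and for 152 of the 157 MICAL1-FL peaks (96.8%). Over all autosomal peaks these shares were 95.9% and 97.0%. A p of 0.001 or less was listed for 16 (11.2%) and 24 (15.3%), against 13.6% and 11.7% of all autosomal peaks. Folds ran from 1.75 to 3.51 in the control list and from 1.71 to 3.82 in the MICAL1-FL list. Median widths were 344 and 332 bp. At such depths 1 or 2 fragments decide whether a peak is listed, so absence from 1 list does not show that ATRX was absent there. Depths were worked out from the authors' fold and p values.

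**Figure D1:**
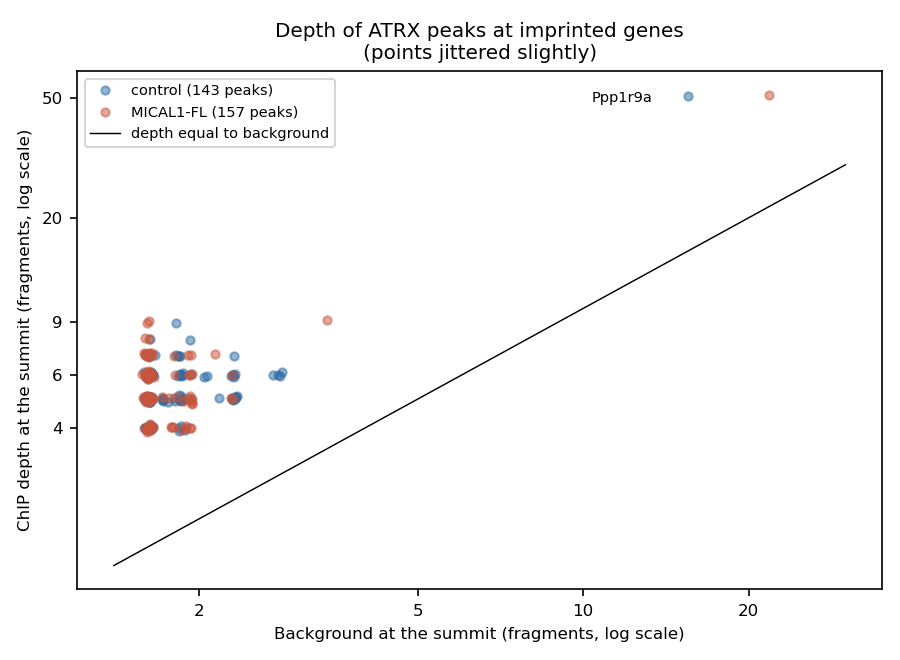
Depth of the 300 ATRX peaks at imprinted genes. The x axis gives the background and the y axis the ChIP depth at the summit, both in fragments on log scales, and each point is a peak of the control or the MICAL1-FL list; the Ppp1r9a peaks of 51 and 52 fragments sit apart from all others, which lie between 4 and 9.

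The number of peaks per length at imprinted genes was below the average of coding genes in the control list and near it in the MICAL1-FL list. Over the 3.83 Mb of member genes and flanks there were 37.4 control peaks per Mb (31.5 to 44.0), against 47.8 at all 20661 autosomal coding genes. There were 41.0 MICAL1-FL peaks per Mb (34.9 to 48.0), against 44.4. Of the member peaks, 128 of 143 control summits (89.5%) and 136 of 157 MICAL1-FL summits (86.6%) lay inside a gene, and genes made up 89.8% of the length searched. Without the sparse Snrpn-Ube3a domain there were 42.75 control peaks per Mb (35.9 to 50.5) and 47.44 MICAL1-FL peaks per Mb (40.2 to 55.6).

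Most imprinted genes held at least 1 peak, as most coding genes did. A control peak was found at 33 of 45 coding members (73.3%, 58.1 to 85.4), against a background of 66.4% of coding genes. A MICAL1-FL peak was found at 35 of 45 (77.8%, 62.9 to 88.8), against 63.7%. Of the noncoding members, 5 of 7 held a peak in each list (71.4%), against 68.1% of autosomal long noncoding RNA genes for control and 65.5% for MICAL1-FL. Coding members were long, with a median of 38.3 kb against 17.5 kb for all coding genes, and longer genes hold more peaks. In all, 32 of the 52 members held peaks in both lists and 6 in neither. Of 33069 autosomal coding and long noncoding RNA genes, 16604 held peaks in both and 6215 in neither. Counts were higher in the MICAL1-FL list at 20 members, higher in the control list at 18 and equal, above 0, at 8. This split was not worked out over all genes.

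**Figure D2:**
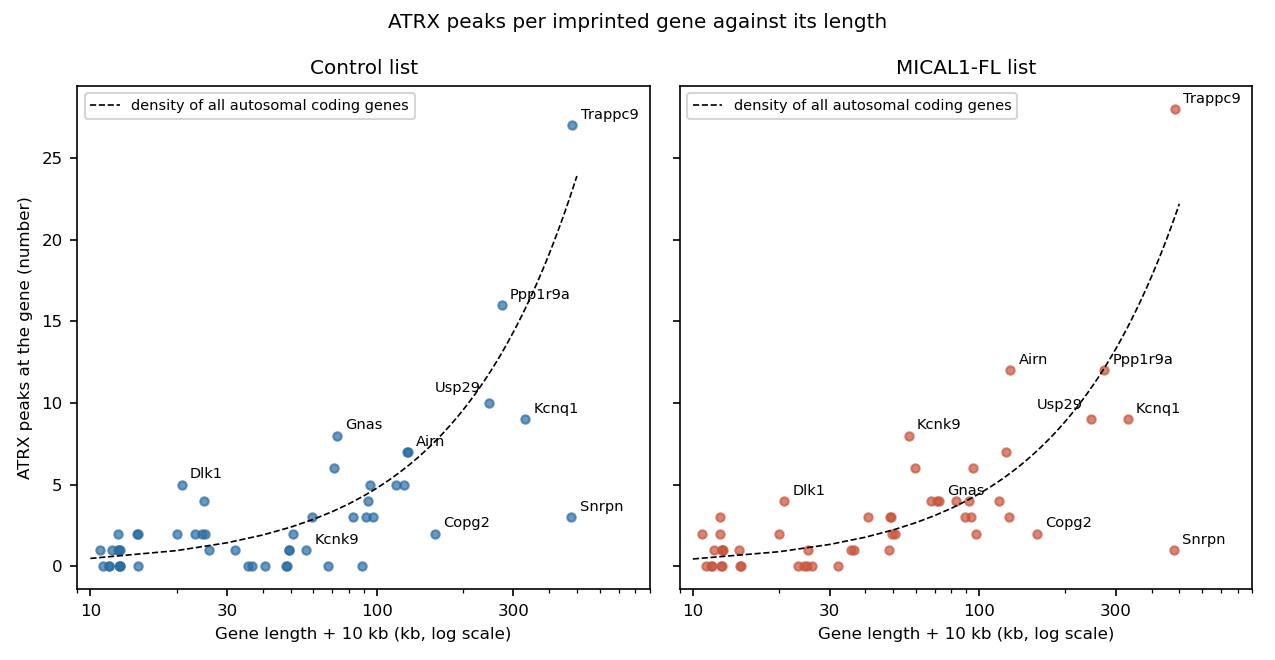
ATRX peaks per imprinted gene against its length. The x axis is gene length with both flanks in kb on a log scale, the y axis the number of peaks, each point is 1 of the 52 genes, and the dashed line is the number that the density of all autosomal coding genes would give; Trappc9, with 27 control and 28 MICAL1-FL peaks, lies near the line, and Snrpn, with 3 and 1, lies far under it.

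Peaks overlapped between the lists at few places. Of the 143 control member peaks, 8 shared 1 bp or more with a peak in the MICAL1-FL list (5.59%, 2.45 to 10.7), against 6.85% of all autosomal control peaks. In the other direction it was 9 of 157 (5.73%, 2.65 to 10.6), against 7.23%. Ppp1r9a held 4 of the 8 shared control peaks. Besides the deep one, these lay near its start (chr6:4903451-4903902, 6 fragments in control and 9 in MICAL1-FL), at chr6:4964348-4964664 (6 and 5 fragments) and at chr6:5021345-5021742 (6 and 6 fragments). The MICAL1-FL peak near the start had a fold of 3.82 and a p of 7.81e-06, and the control peak a fold of 1.88 and a p of 0.0217. The other 4 shared peaks lay past the far end of Airn, just after the start of Rasgrf1, before Mcts2 and inside Kcnq1, and each is described with its domain below.

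Summits near gene ends were about as frequent at imprinted genes as at other genes. A control summit within 1 kb of either end was found at 11 of 45 coding members (24.4%, 12.9 to 39.5), against 27.7% of coding genes. A MICAL1-FL summit was found at 10 of 45 (22.2%, 11.2 to 37.1), against 26.5%. Both lists had one at 7 of the 45 coding members, against 2247 of 20661 coding genes. These were Blcap, Nnat, Ppp1r9a, Asb4, Ube3a, Rasgrf1 and Zrsr1. The control list alone had one at Peg10, Cd81, Tssc4, Dlk1, Mirg and Airn, and the MICAL1-FL list alone at Mcts2, Ascl2, Meg3 and Impact.

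Measured from RefSeq starts, 14 of the 40 members with a window had a control summit within 1 kb (35%, 20.6 to 51.7), against 22.4% of autosomal genes. They were Airn, Asb4, Blcap, Cd81, Commd1, Dlk1, Grb10, Igf2, Mest, Ppp1r9a, Rasgrf1, Ube3a, Zdbf2 and Zrsr1. A MICAL1-FL summit was found at 8 of 40 (20%, 9.05 to 35.6), against 21.7%, at Ascl2, Blcap, Commd1, Mcts2, Nnat, Ppp1r9a, Rasgrf1 and Ube3a. Blcap, Commd1, Ppp1r9a, Rasgrf1 and Ube3a had one in both lists. Genes with several RefSeq starts had more chances to be counted.

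**Figure D3:**
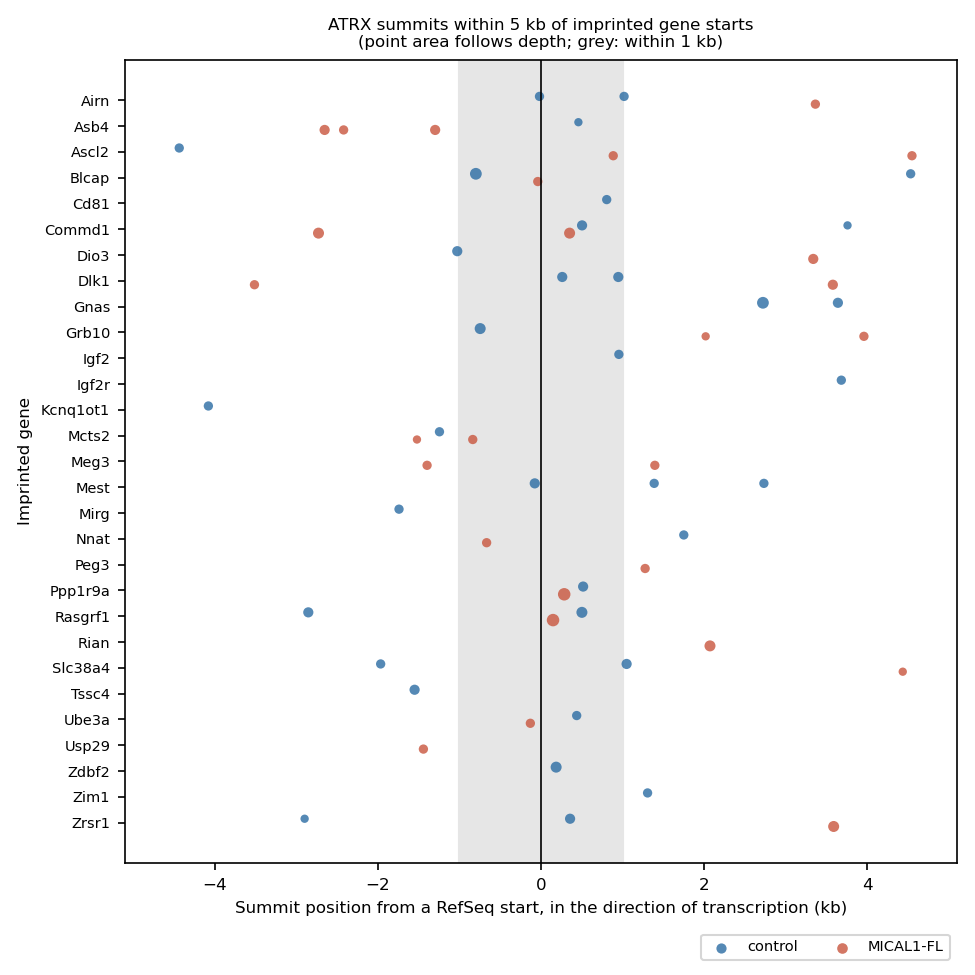
ATRX summits within 5 kb of the RefSeq starts of imprinted genes. The x axis is the distance of a summit from the nearest start in kb, with negative values before the start, each row is a gene, point area follows depth, and the grey band marks 1 kb on either side; the control list has points in the band at 14 genes and the MICAL1-FL list at 8.

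The domains differed widely in the number of peaks. Most peaks lay in the Peg13-Kcnk9 domain, with 28 control and 36 MICAL1-FL peaks, and in the Peg10-Sgce domain, with 22 and 25. Per length, the Gnas domain had the highest control value, 110 peaks per Mb (47.7 to 218), and its interval just included the 47.8 of all coding genes. Nnat-Blcap had 100 per Mb in each list, from 2 peaks each, and Slc38a4 84.3 in the control list. Snrpn-Ube3a was low in both lists. The largest domain ratio with at least 5 peaks in each list was that of Igf2r-Airn, 1.86 (0.689 to 5.50), and its interval included 1, as did the interval of every other domain with peaks in both lists.

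**Figure D4:**
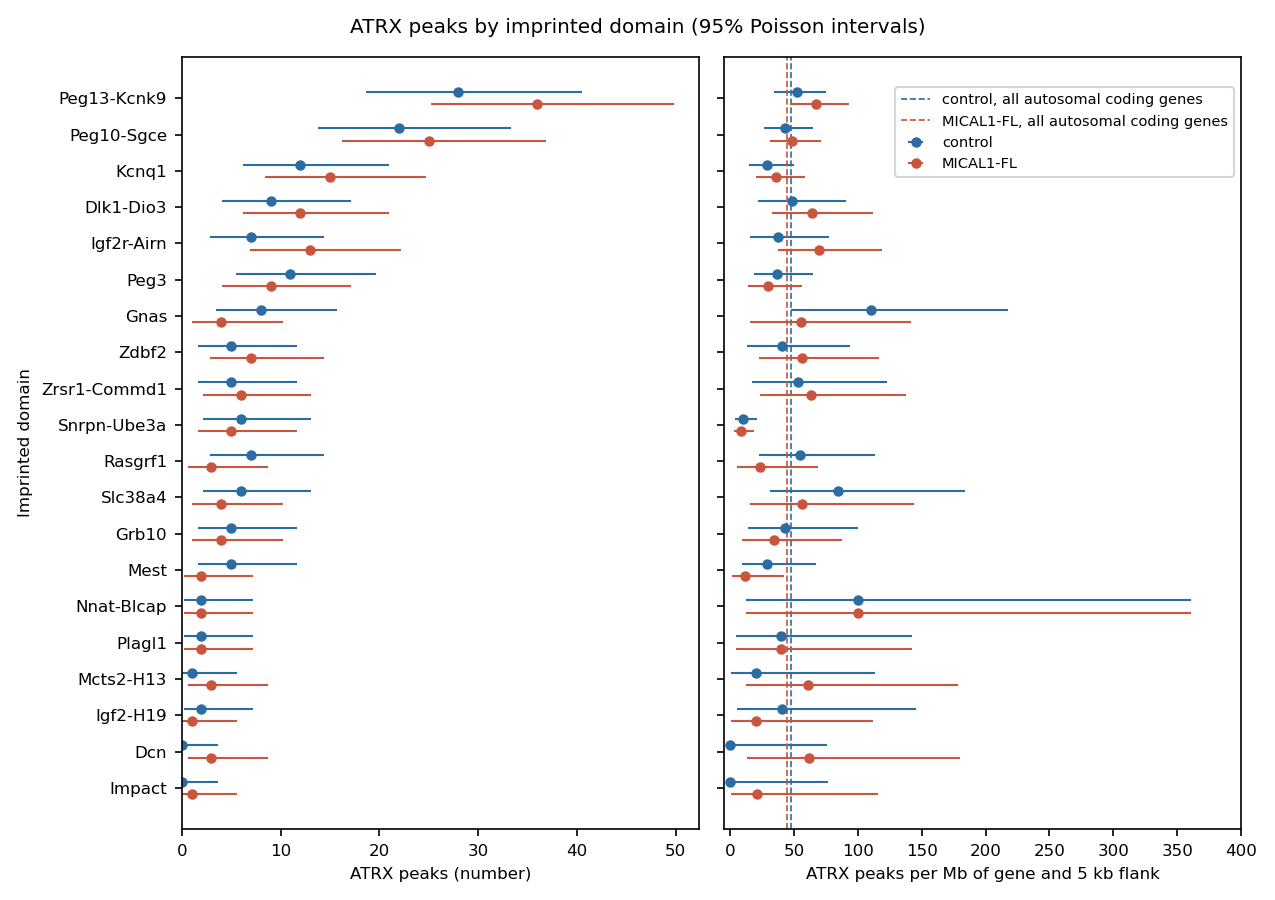
ATRX peaks in each of the 20 imprinted domains. The left panel gives the number of peaks and the right panel peaks per Mb of genes with their flanks, points are the control and MICAL1-FL lists, bars are 95% Poisson intervals and dashed lines the values of all autosomal coding genes; Snrpn-Ube3a lies below both lines and all domains' intervals overlap between the lists.

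In the Igf2-H19 domain on chromosome 7, few peaks were listed. H19, a maternally expressed noncoding RNA whose upstream control region is methylated on the paternal copy, had 1 peak in each list at different sides. The control peak (chr7:142572234-142572498, 6 fragments, fold 2.45) lay 3.17 kb below the lower end of the gene. The MICAL1-FL peak (chr7:142582527-142582771, 6 fragments, fold 2.40) lay 4.58 kb past the higher end. Igf2, the paternally expressed growth factor, had 1 control peak with its summit 955 bp after a start (chr7:142656328-142656704, 5 fragments, p 0.0307) and none in the MICAL1-FL list. Ins2, an insulin gene, had none in either list.

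The neighbouring Kcnq1 domain had 12 control and 15 MICAL1-FL peaks. Kcnq1, a potassium channel gene of 320 kb, held 9 in each list. Kcnq1ot1, the paternally expressed noncoding RNA that runs through it and silences neighbours, had 4 and 3 of these in the gene or its flanks. A shared place lay inside Kcnq1 (chr7:143210743-143211084 in control, 5 fragments, and chr7:143210759-143211084 in MICAL1-FL, 6 fragments), with summits 2.13 and 2.21 kb beyond the far end of Kcnq1ot1. No summit of either list lay within 1 kb of that start. The nearest control summit was 4.08 kb before it. The cell cycle inhibitor Cdkn1c and the transporter Slc22a18 each had 1 MICAL1-FL peak of 6 fragments and no control peak. Ascl2, a transcription factor of the placenta, had 1 control peak 4.43 kb before its start and 3 MICAL1-FL peaks 886 bp, 4.55 kb and 6.61 kb after it. The tetraspanin Cd81 had 2 control peaks and 1 MICAL1-FL peak, Tssc4 had 1 and 1, and the growth-restraining Phlda2 had none.

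At Igf2r and Airn on chromosome 17 the MICAL1-FL list had 13 peaks and the control list 7. Airn is a noncoding RNA that, in tissues where the pair is imprinted, is paternally expressed and silences the paternal copy of Igf2r. Igf2r is the receptor that clears Igf2. Whether either gene was imprinted in these neurons cannot be read from the lists. Airn alone had 7 and 12, which is a ratio of 1.71 (0.622 to 5.14). Igf2r held 3 and 2. The control list had a peak at the Airn start (chr17:12741187-12741742, 5 fragments), with its summit 18 bp before it, and another 1.02 kb after it. The nearest MICAL1-FL summit was 3.36 kb after the start. With summits 3.27 and 3.18 kb past the far end of Airn the lists shared a place, chr17:12862999-12863337 in control with 7 fragments and chr17:12862944-12863213 in MICAL1-FL with 5. The MICAL1-FL list had 2 more peaks just beyond it, of 6 and 5 fragments. The MICAL1-FL peak of smallest p in Airn (chr17:12808190-12808481) had 7 fragments and a p of 0.000279.

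The Dlk1-Dio3 domain on chromosome 12 held 9 control and 12 MICAL1-FL peaks. Dlk1, a paternally expressed ligand of the Notch family, had 24.0 control and 19.2 MICAL1-FL peaks per 100 kb, the highest control value of all members. Its 5 control summits included 2 just after the start, at 261 and 948 bp, with 6 fragments each. None of its 4 MICAL1-FL summits lay within 1 kb of the start. One of them (chr12:109459009-109459404), 6.43 kb after the start, had 9 fragments, a fold of 3.82 and a p of 7.81e-06, but a q of 0.139. Of the maternally expressed noncoding RNAs, Meg3 had 0 control and 3 MICAL1-FL peaks, Rian 0 and 4, and Mirg 2 and 0. A count of 0 allows up to 3 peaks as a one-sided limit, where the intervals given elsewhere are two-sided. The Meg3 summits nearest to its starts lay 1396 bp before and 1396 bp after. The retrotransposon-derived Rtl1 had 1 and 2 peaks, and Dio3, which inactivates thyroid hormone, 1 and 1. The RefSeq table placed 29 microRNA hairpins within members of this domain and 35 within all members, and no peak of either list overlapped any of them. Over all 919 autosomal hairpins of the table, control peaks overlapped 4.46% and MICAL1-FL peaks 3.59%, so few overlaps were due among 35.

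The genes of the Snrpn-Ube3a domain on chromosome 7 were sparse in peaks. Loss of this region's paternal genes underlies Prader-Willi syndrome in humans and loss of maternal UBE3A Angelman syndrome. Over 0.621 Mb there were 6 control peaks, or 9.66 per Mb (3.54 to 21.0), and 5 MICAL1-FL peaks, or 8.05 per Mb (2.61 to 18.8). Snrpn, which codes for a splicing factor subunit, covers 468 kb in the annotation used and held 3 control peaks and 1 MICAL1-FL peak. The control peaks began at chr7 positions 60053666, 60114486 and 60213335, with 6, 4 and 7 fragments, and none lay within 5 kb of a Snrpn start. Ndn, Magel2, Mkrn3 and Peg12, short paternally expressed genes, had no peak in either list. Ube3a, the ubiquitin ligase expressed from the maternal copy in neurons, held 3 and 4. Its start was bracketed by the lists, with a control summit 438 bp after it (chr7:59228942-59229576, 5 fragments) and a MICAL1-FL summit 130 bp before it (chr7:59228013-59228760, 5 fragments), and these peaks did not overlap. Counted over the whole 3.25 Mb from the first to the last of these genes, there were 21 control and 33 MICAL1-FL peaks.

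Gnas, which codes for the alpha subunit of the stimulatory G protein and has several imprinted promoters, had more control than MICAL1-FL peaks. It had 8 control peaks against 4 in the MICAL1-FL list (ratio 0.5, 0.110 to 1.87), and none overlapped. Within 20 kb after the first RefSeq start there were 6 control summits, at 2721, 3640, 5184, 12051, 13705 and 15470 bp, and 2 MICAL1-FL summits, at 6709 and 11019 bp. Beyond 20 kb there were 2 and 2. Its deepest peaks were both control peaks. The peak at chr2:174297887-174298303 had 9 fragments, a fold of 3.51 and a p of 2.44e-05. The peak at chr2:174286628-174287248 had 8 fragments, a fold of 3.43 and a p of 5.03e-05. The q values were 0.395 and 0.705.

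Kcnk9, a maternally expressed potassium channel gene on chromosome 15, showed the opposite split, with 1 control peak against 8 in the MICAL1-FL list (ratio 8, 1.07 to 355). Of these, 3 MICAL1-FL peaks stood together 1.11, 1.89 and 2.78 kb inside the higher-coordinate end of the gene, with 7, 8 and 7 fragments. The middle one (chr15:72546414-72546797) had the smallest p of the group, 4.91e-05, with a fold of 3.44 and a q of 0.626. The only control peak lay 4.99 kb past that end. Its neighbour Trappc9, a trafficking protein gene linked to intellectual disability in humans, held 27 and 28 peaks over 472 kb, all of 4 to 7 fragments. Peg13, a paternally expressed noncoding RNA inside Trappc9, had 2 control peaks and none in the MICAL1-FL list.

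Counts that differed by 2 times or more were found at few imprinted genes. Of the 18 members with at least 5 peaks in both lists together, Asb4 and Kcnk9 (2 members) had a MICAL1-FL count at least 2 times the control count, against 14.6% of autosomal genes with as many peaks. Another 2 had at most 0.5 times as many, Gnas and Rasgrf1, against 19.8%. The counting interval of the ratio excluded 1 at 1 member, Kcnk9, against 1.92% of 8234 genes. The intervals were not adjusted for the number of genes, and Kcnk9 was 1 of 18 members looked at.

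**Figure D5:**
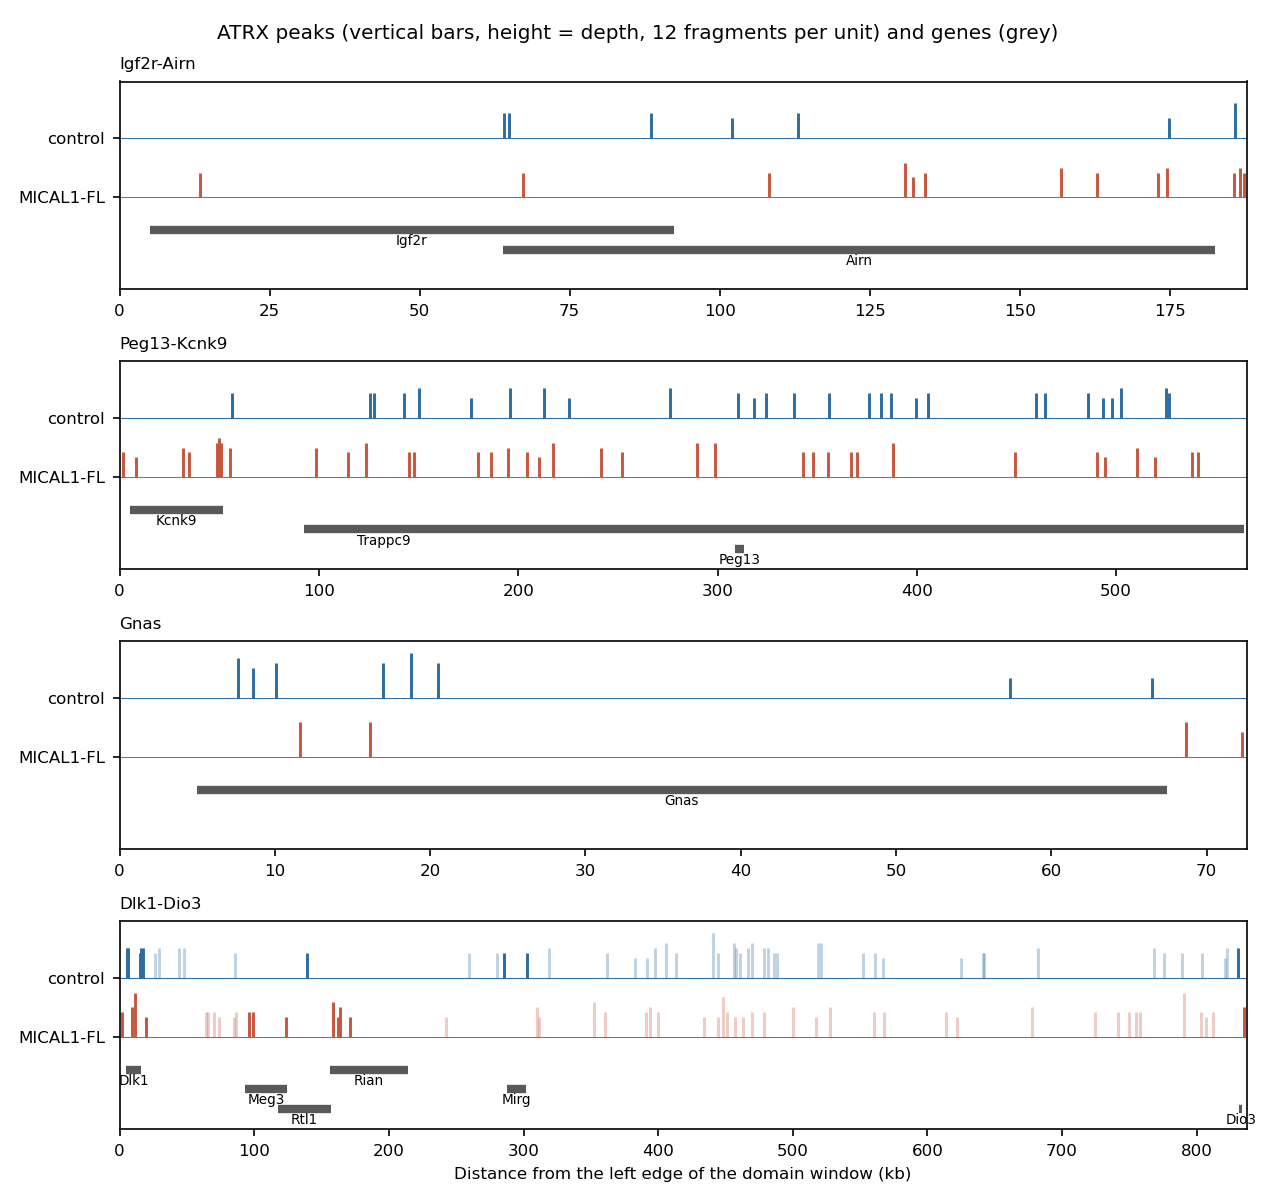
ATRX peaks along 4 imprinted domains. The x axis is the distance in kb from the left edge of each domain's window. Bars are peaks with height following depth, grey blocks are genes, and pale bars are peaks outside the members and their flanks. The control list has 6 and the MICAL1-FL list 2 peaks in the first 20 kb of Gnas, a limit that was not planned. The MICAL1-FL list has 3 peaks side by side near the right end of Kcnk9.

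In the Peg10-Sgce domain on chromosome 6, Ppp1r9a held most peaks, 16 control and 12 MICAL1-FL. Asb4, a subunit of ubiquitin ligases, had 3 control and 6 MICAL1-FL peaks of 4 to 6 fragments. The control list had a summit 459 bp after an Asb4 start, and the nearest MICAL1-FL summits lay 1297, 2419 and 2652 bp before starts. Sgce, a sarcoglycan gene, had 3 and 4 peaks, and the calcitonin receptor gene Calcr 0 and 3. Peg10, a paternally expressed gene derived from a retrotransposon, had 2 control peaks of 5 fragments with summits 950 and 1778 bp from its lower end, shared with the flank of Sgce, and none in the MICAL1-FL list.

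Mest, a paternally expressed gene of the hydrolase fold on the same chromosome, had 4 control peaks and no MICAL1-FL peak, and 0 allows up to 3. The first control peak (chr6:30737803-30738049) lay wholly within the promoter window printed above, with 6 fragments, a fold of 2.67 and a p of 0.00144. The others followed 1.39, 2.73 and 6.13 kb after the start, with 5, 5 and 4 fragments. Copg2, its antisense neighbour, had 2 peaks in each list, and the last Mest peak was counted for both genes.

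In the Peg3 domain, also on chromosome 7, there were 11 control peaks and 9 in the MICAL1-FL list. Of these, 10 and 9 lay in Usp29, a ubiquitin protease gene of 237 kb, or in its flanks. Peg3 itself, a paternally expressed zinc finger gene, had no control peak and 1 MICAL1-FL peak 1.28 kb after a start with 5 fragments. That peak also lay in the flank of Usp29 and was counted for both genes. Zim1 had 1 control peak. In the Nnat-Blcap pair on chromosome 2, each list had 2 peaks. Nnat, a neuronal proteolipid gene inside Blcap, had a MICAL1-FL summit 666 bp before a start and a control summit 1.75 kb after one. Blcap had a control peak (chr2:157567071-157567353) of 8 fragments, with a fold of 3.07 and a p of 0.000186, whose summit was 798 bp before its start. The MICAL1-FL summit was 39 bp before it, with 5 fragments. Before Mcts2, a retrogene inside H13, 1 control peak (chr2:152685811-152686225) overlapped the edges of 2 MICAL1-FL peaks (chr2:152685526-152685846 and chr2:152686149-152686481), all of 4 or 5 fragments.

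Single-gene domains varied in the same narrow range. Rasgrf1, a neuronal exchange factor for Ras with paternal germline methylation, had 7 control and 3 MICAL1-FL peaks, and both lists had a peak just after its start. The control peak there (chr9:89909992-89910458) had 7 fragments over a background of 1.62, and the MICAL1-FL peak (chr9:89909867-89910800) had 9 over 3.46. A MICAL1-FL peak further in the gene (chr9:89991650-89992471) had 8 fragments and a fold of 3.44. Grb10, a signalling adaptor expressed from the maternal copy in most tissues and from the paternal copy in neurons, had 5 and 4 peaks. The control list had a Grb10 peak (chr11:12028558-12029136, 7 fragments) 745 bp before a start, and the nearest MICAL1-FL summits were 2.02 and 3.96 kb after starts. Plagl1, a zinc finger gene of an imprinted growth network, had 2 peaks in each list, none within 5 kb of a start.

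Zdbf2 had 5 control and 7 MICAL1-FL peaks, with a control summit 186 bp after a start. Zrsr1 had 2 and 1 and its host Commd1, a copper regulator, 5 and 6. The Commd1 control peak of smallest p (chr11:22917745-22918226) had 7 fragments and a p of 0.000285. The amino acid transporter gene Slc38a4 had 6 and 4 peaks. The proteoglycan gene Dcn had 0 control and 3 MICAL1-FL peaks, and Impact, a translation regulator enriched in neurons, 0 and 1.

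Members were also split by the parental copy known to be expressed in tissues where the gene is imprinted, which need not include neurons. Gnas and Grb10, whose expressed copy depends on tissue or promoter, were in neither group. The 24 maternally expressed members had 79 control peaks against 102 (ratio 1.29, 0.953 to 1.75). The 26 paternally expressed members had 66 and 58, a ratio of 0.879 (0.607 to 1.27), where all autosomal coding genes had 0.929. The intervals overlap, genes of both kinds share peaks, and the difference was not tested. By the parent whose germ cells methylate the control region, the 40 members with maternal methylation had 120 and 131 peaks and the 11 with paternal methylation 23 and 23. Dcn was listed with neither and left out of this split. Noncoding members had 16 and 23 peaks, a ratio of 1.44 (0.727 to 2.91), and coding members 136 and 140.

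The ratio of the lists over all members was 1.10 (0.870 to 1.39), while all autosomal coding genes had a ratio of 0.929 (0.918 to 0.940). The ratio at imprinted genes turned with the background under the peaks. Peaks at the lowest background of their list, 1.62 fragments, made up 81 of 143 control member peaks (56.6%) and 124 of 157 MICAL1-FL member peaks (79.0%), against 62.8% and 68.4% of all autosomal peaks. Among these the member ratio was 1.53 (1.15 to 2.05), and that of all coding genes 0.981. Above the lowest background the members had 62 peaks in the control list against 33 (ratio 0.532, 0.338 to 0.825), and all coding genes had a ratio of 0.850. These selections were made after the data were seen, and the part of the input background in the ratio was not tested.

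A separate list of 35 further imprinted genes, of which 33 were found, gave 116 control and 122 MICAL1-FL peaks, or 44.3 and 46.6 per Mb against 47.8 and 44.4 at all coding genes, with a ratio of 1.05 (0.809 to 1.37). Of these, 30 held a control peak (90.9%, 75.7 to 98.1) and 29 a MICAL1-FL peak (87.9%, 71.8 to 96.6), against 66.4% and 63.7% of coding genes. The chloride channel gene Ano1 had 6 and 15 and the adenylate cyclase gene Adcy5 17 and 10. Of 16 genes whose proteins keep or read imprints, 7 held a control peak (43.8%, 19.8 to 70.1) and 12 a MICAL1-FL peak (75%, 47.6 to 92.7), against the same 66.4% and 63.7%, with 12 and 21 peaks in all, a ratio of 1.75 (0.822 to 3.90). Among them Ctcf, whose protein insulates Igf2 from its enhancers, had 0 and 3, Daxx 0 and 1, Atrx 1 and 1, Zfp57 2 and 2, and Trim28 none in either list. Counts were higher in the control list at Uhrf1 (3 and 1), Dppa3 (2 and 0) and Smc3 (1 and 0).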

How the data were processed

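ATRX ChIP-seq peak lists of control (mCherry) and MICAL1-FL mouse neurons were used, 1 list per condition. An input sample of control neurons was not analysed here. The tools named, per the submitters' processing notes, are ChIPseeker 1.26.2, MACS 1.4.2, SAMtools 1.9 and Bowtie 1.3.0, whose roles are not stated. Build and calling threshold: not given in the sources used here. Peak names in the MICAL1-FL list begin with TBC_M2. The sample title was followed, and every MICAL1-FL value rests on it.

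The score of a peak, as deposited, restates its −log10 p. The fold of a peak is the authors' ratio over background. The authors' peak caller also gave the −log10 p and −log10 q, and the summit comes from the offset deposited by the authors. Depth was worked out from fold, taken as depth + 1 over background + 1, and from p as a Poisson probability. It was recovered for all 300 member peaks within 0.01 of the −log10 p. It is an inference. Background was the authors' scaled value, so folds printed for both lists at the same place do not measure a difference between them.

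Genes were those of the RefSeq table for GRCm38.p6, whose coordinates are not printed. This build was used because chromosome names fitted it and peaks were dense at its gene ends. A peak was given to a gene when it overlapped the gene or 5 kb on either side by at least 1 bp, and a list counts each peak 1 time. Intervals are exact Poisson for counts, Clopper-Pearson for shares and conditional binomial for ratios, at 95%. The members and lists were chosen with earlier results of these data known. Named were the 6 member peaks of smallest p in each list (tied ones by position), all shared peaks, members with peaks near an end, members with at least 5 peaks and a ratio of at least 2 or at most 0.5, and a set of well-known imprinted genes. Any other member is named for completeness. A planned search for CTCF letters in the promoter windows is not reported here. Python 3.11.15, pandas 2.3.3, NumPy 2.4.6, SciPy 1.17.1 and matplotlib 3.10.9 were used, and the counting steps were tested on simulated data.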

Additional observations from a re-analysis of the deposited data

How the results depend on the processing

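Of 206 alternative values, 163 stayed within the counting interval of the reported value, or for counts within 1.5 times of it, and 43 moved. This tally does not measure stability, because many values had little room to move. Each domain left out gave 5 unchanged values, and the largest held only 28 control and 36 MICAL1-FL peaks. Counting whole stretches gave 31 more, and a domain of a single gene cannot change there. A p of 0.001 or less moved 9 values and left 2, and the 10000 smallest p moved all 7. Taking summits in place of overlaps, no flank or a flank of 10 kb moved none of the counts, densities or ratios of all members. Leaving out each domain in turn gave 115 to 143 control and 121 to 156 MICAL1-FL peaks, 34.98 to 42.75 and 36.81 to 47.44 per Mb, and ratios of 1.052 to 1.133.

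A p of 0.001 or less left 16 control and 24 MICAL1-FL peaks at 12 and 16 genes (4.182 and 6.273 per Mb). All autosomal coding genes had 6.97 and 5.52 per Mb under this rule. In each list 2 genes kept an end peak. The member ratio was then 1.5 (0.7645 to 3.02), against 0.793 at all autosomal coding genes. A q of 0.05 or less left 1 and 1, at 1 gene in each list (0.2614 per Mb in both). The 10000 peaks of smallest p of each list left 11 and 21, at 10 and 16 genes (2.875 and 5.489 per Mb, against 4.52 and 4.28 at all autosomal coding genes). Their ratio was 1.909 (0.880 to 4.38), against 0.945 at all autosomal coding genes. End peaks were at 6 control and 5 MICAL1-FL genes within 500 bp, and at 21 and 23 within 3 kb. Peaks up to 1 kb apart made 16.78% and 16.56% shared. Numbers of genes with a peak or an end peak, and the shared percentages, were not worked out over all genes or peaks under these settings.

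Chosen after seeing the data, the lowest background alone left 81 control peaks, 21.17 and 32.41 per Mb and a ratio of 1.531. All autosomal coding genes had 28.9 and 28.3 per Mb at the lowest background. Leaving out the 5 members over 200 kb, also chosen after seeing the data, left 84 and 102 peaks. Over the whole stretch of a domain, counts were 60 and 54 for Peg10-Sgce, 21 and 33 for Snrpn-Ube3a, 4 and 5 for Igf2-H19, 49 and 51 for Dlk1-Dio3, and 21 control peaks for Kcnq1. The smaller sets follow from the stricter rules themselves.

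No paired analysis was possible because there was 1 library per condition and the labels carry no replicate numbers. For the same reason no replicate was left out. Most member peaks had 6 fragments or fewer, which limits every statement on a single peak.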
